A study of Mus musculus with 2 samples.

Results

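The cells described here are the day 6 cells of mouse eye organoids that still held many transcripts of Dppa5a, a gene known for its high level in naive pluripotent cells and early germ cells. They were chosen by a count: 10 or more Dppa5a unique molecular identifiers (UMIs, counts of captured mRNA molecules) and fewer than 5 UMIs of Col4a1, a basement membrane collagen. Of 7446 day 6 barcodes, 6440 were kept (at most 26000 UMIs and 5000 genes, 0.5 to 10% of UMIs from mt- genes), and 493 of these met the rule and are called the members. They made up 7.66% of the kept day 6 cells (95% exact binomial interval 7.02–8.33, counting error only), the UMI limit having removed 119 further day 6 barcodes that met both counts. The same limits applied to day 4 gave 1560 cells of 7812 (the day 4 cells of the gate), or 19.97% (19.09–20.9), and over both days 14252 of 16560 barcodes were kept.

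The organoids were grown from mouse embryonic stem cells of the EB5 line that carry GFP knocked in at 1 Rax allele, a genotype that all groups share, in retinal differentiation medium with Matrigel added from day 1. The labels call the cells retina progenitors and give no other treatment. One 10x Genomics library was made at day 4 and one at day 6, each from organoids pooled over 3 experiments that the barcodes do not separate. Each day is thus 1 sample from 1 stem cell line. Every difference between days is therefore a difference between 2 libraries in which day and library cannot be told apart, and no test of significance was made. The intervals in brackets are 95% intervals for counting error alone.

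Mouse embryonic stem cells in the naive state correspond to the epiblast of the blastocyst, and are maintained by Nanog, Klf2, Klf4, Esrrb and Tfcp2l1 around the shared core of Pou5f1 and Sox2. When they leave this state they pass through a formative state, with Fgf5, Otx2, Dnmt3b and Pou3f1 switched on and the naive genes switched off, before neural genes such as Pax6 and, in the eye field, Rax, Six3, Six6 and Lhx2 appear. A number of germ cell genes, among them Dazl, Mael, Sycp3 and Tex19.1, have CpG-rich promoters that DNA methylation is known to silence in somatic cells. Stra8, named for its induction by retinoic acid, is known for its role at entry into meiosis.

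The members held 7285978 UMIs in all and a median of 14474 UMIs per cell (5105 to 25978), against 12524 in the other 5947 day 6 cells and 11955.5 in the day 4 cells of the gate. Ribosomal protein genes took a median of 41.4% of a member's UMIs, 33.8% in the other day 6 cells and 40.9% in the day 4 cells of the gate. The medians for mt- genes were 2.75, 2.49 and 2.91%. Of the 91 barcodes that both libraries share, 4 belonged to members, and none of those was a day 4 cell of the gate. Doublets were in effect left in, since the doublet caller Scrublet marked 0 of 6440 day 6 cells. Among the 5% of day 6 cells with the highest Scrublet scores were 28 members (5.68%), against 5.89% of the other day 6 cells.

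The Dppa5a count divided the day 6 cells into a large group with none and a broad range above it. No Dppa5a UMI was found in 4775 of the kept day 6 cells (74.1%), whereas only 57 cells held 5 to 9. The members had between 10 and 374 UMIs with a median of 62, and 254 of them had 60 or more. On day 4 the counts declined more evenly, with 2653 cells at 0 (34.0%) and 549 at 5 to 9. Just below the limit, 33 day 6 cells with 7 to 9 Dppa5a UMIs had 116 UMIs of Pou5f1 per 1000000 UMIs (CPM), 147 of Stra8 and 52.6 of Pax6. Just inside it, the 21 cells with 10 to 12 UMIs had 109, 71.1 and 63.6 CPM. At the Col4a1 limit, 17 members held 3 or 4 Col4a1 UMIs, and 3 excluded cells held 5 or 6.

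**Figure D1:**
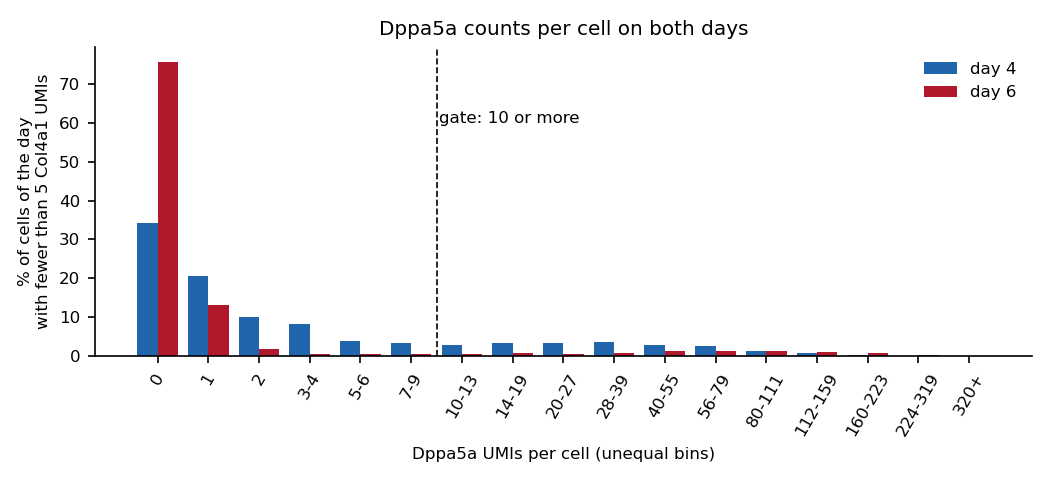
Share of each day's kept cells with fewer than 5 Col4a1 UMIs (y axis, percent) by Dppa5a UMIs per cell (x axis, unequal bins) for day 4 in blue and day 6 in red, with the limit of 10 UMIs as a dashed line. Day 6 shows most cells without a UMI, few between 5 and 9 and a low, broad group above the limit, while day 4 declines more evenly.

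Of the 6 genes given as markers, Dppa5a was used to choose the cells, and the other 5 were read out in the same cells. The level of each group is its UMI sum in CPM, in which fewer expressing cells and less RNA per cell cannot be told apart, and the share of cells is that with at least 1 UMI after every cell was thinned to 5000 UMIs. Nanog, a homeodomain factor of the pluripotency core, stood at 72.2 CPM in the members and 0.864 in the other day 6 cells, a ratio of 83.5 (64.8–109). It was found in 26.6% of the members and 0.504% of the others. Dppa3, a protector of maternal DNA methylation in the early embryo, stood at 57.5 and 0.343 CPM and was found in 11.0 and 0.202% of cells. Stra8 stood at 153 and 2.73 CPM and was found in 33.5 and 0.723%. These 3 genes were therefore nearly absent from the rest of the day 6 library.

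Krt19, an epithelial keratin, was less exclusive. It stood at 105 CPM in the members and 7.60 in the other day 6 cells, and was found in 25.4 and 2.41% of cells. Klf4, a naive factor that other epithelia also use, stood at 20.6 and 8.86 CPM and was found in 7.71 and 3.18% of cells, a ratio of 2.32 (1.94–2.78) that was under 2-fold, at 0.97 on the log2 scale, when Col4a1 was limited to fewer than 2 UMIs. As a background, all 5 genes were found in 0 of 12 day 6 cells with 3 or more UMIs of Sox10, a neural crest factor, which allows a share of up to 25%; these cells had a median of 16724.5 UMIs. These markers came with the working name and were picked from these data, and Stra8 and Krt19 are not pluripotency genes, so their levels describe the cells and do not support the name. No marker other than Dppa5a was found in all members. The word residual in the working name rests on the order of the days alone, because no cell was followed from day 4 to day 6.

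**Figure D2:**
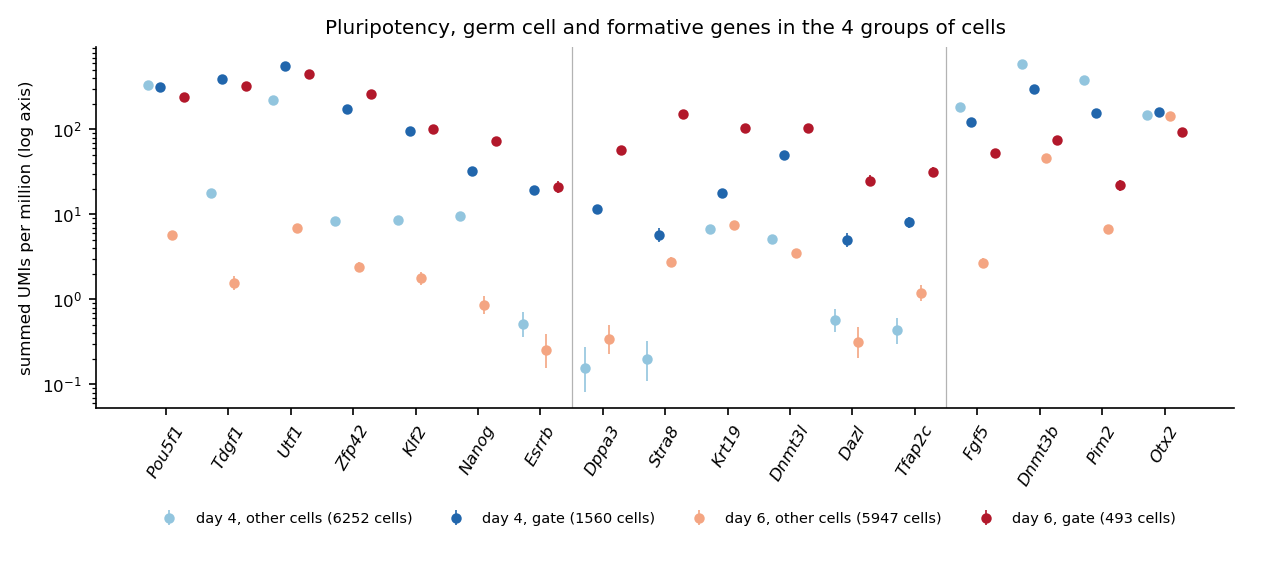
Levels in CPM (y axis, log scale) of 17 genes (x axis) in the members (dark red), the other day 6 cells (light red), the day 4 cells of the same gate (dark blue) and the other day 4 cells (light blue), 1 library per day. Lines are 95% Poisson intervals for counting error. Stra8, Dppa3 and Krt19 are highest in the members, and Fgf5, Dnmt3b and Pim2 are highest in the other day 4 cells.

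Stra8 had the highest ratio to day 4 of all abundant genes, and the germ cell genes Dazl and Tex19.1 were also higher than on day 4. For that reason the promoters of these 3 genes are shown, each as the 250 bases before the RefSeq transcript start, written 5′ to 3′ along the gene's own strand in build GRCm38.p6, with every CpG in capitals. They are chr6:34920698-34920947 on the plus strand for Stra8, chr17:50293621-50293870 on the minus strand for Dazl, and chr11:121145893-121146142 on the plus strand for Tex19.1.
Stra8: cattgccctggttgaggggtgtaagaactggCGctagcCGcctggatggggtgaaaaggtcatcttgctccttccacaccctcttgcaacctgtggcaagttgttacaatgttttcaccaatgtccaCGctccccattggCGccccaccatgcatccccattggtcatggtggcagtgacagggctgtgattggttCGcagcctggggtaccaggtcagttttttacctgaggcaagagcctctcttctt
Dazl: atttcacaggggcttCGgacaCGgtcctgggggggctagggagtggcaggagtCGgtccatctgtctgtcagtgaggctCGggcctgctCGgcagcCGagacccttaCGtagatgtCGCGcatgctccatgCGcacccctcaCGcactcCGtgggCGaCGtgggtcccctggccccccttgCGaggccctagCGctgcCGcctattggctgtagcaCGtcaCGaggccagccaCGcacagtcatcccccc
Tex19.1: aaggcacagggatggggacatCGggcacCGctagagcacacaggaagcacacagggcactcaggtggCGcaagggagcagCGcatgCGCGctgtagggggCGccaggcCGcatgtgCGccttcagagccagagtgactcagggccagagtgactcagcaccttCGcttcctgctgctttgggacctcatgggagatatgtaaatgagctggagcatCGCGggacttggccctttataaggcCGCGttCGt
The Stra8 window held 5 CpG, and 55.5% of 27025 genes in the RefSeq table had as many or more. The Dazl window held 20 (17.7% of genes) and the Tex19.1 window 15 (27.5%), beside a median of 6 over all genes and of 17 over the genes measured in these cells. The windows of Mael and Sycp3 held 18 and 12 CpG. The motif AGGTCA, which nuclear receptors bind, searched on both strands, occurred 2 times in the Stra8 window and not in those of Dazl and Tex19.1. This motif was present in 13.8% of all genes' windows, and a match is a description of the letters only. Of the 21 germ cell genes, 16 had a promoter in the table, with 3 to 31 CpG and a median of 15.

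Compared with the other day 6 cells, the members were higher in naive, general pluripotency, germ cell and epithelial genes, and lower in eye field and neural genes. A gene counted as higher or lower by size where its CPM ratio was 2-fold or more and its interval left out 1, among genes with a mean CPM of the 2 groups of 10 or more. Of 6808 such genes, 545 were called higher (8.01%) and 813 lower (11.9%), and the median log2 ratio of all of them was −0.29. This balance moved with the scaling, since 40.1% of the calls were in the higher direction with plain totals, 54.0% (915 higher, 778 lower) with mt-, Rpl and Rps genes left out of the totals, and 60.8% (725 higher, 468 lower) after centring on the median ratio. Because the cells were chosen on these same counts, all of these ratios describe them and are not evidence for the choice. A gene near 0 in the other cells passes the filter on low values only through the members. Counts of a list's measured genes have to be read with that in mind and beside the all-gene shares of 8.01% higher and 11.9% lower.

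All 17 naive pluripotency genes had a higher level in the members than in the other day 6 cells. The filter on low values was passed by 9, and 9 of 9 were called higher with a median log2 ratio of 6.37. The list includes Dppa5a, so that these counts and the median draw in part on the gene that chose the cells. Zfp42, also known as Rex1 and a classical marker of the naive state, stood at 264 CPM against 2.41, a ratio of 109 (94.1–128). Klf2 stood at 100.1 against 1.77 CPM, and the orphan nuclear receptor Esrrb at 21.0 against 0.254 CPM. Of the 14 general pluripotency genes, 13 were above the other day 6 cells. Tdgf1, a co-receptor of Nodal, had the highest ratio of the comparison among abundant genes, 319 against 1.56 CPM or 204-fold (170–247). Pou5f1 stood at 243 against 5.71 CPM and Utf1 at 447 against 6.96 CPM. Core genes that neural progenitors also use behaved otherwise. Sox2 stood at 109 against 63.5 CPM, within 2-fold, and Lin28a, an RNA-binding protein that blocks let-7, was lower at 52.0 against 121 CPM, a call that was lost after centring (−0.93 on the log2 scale). Other abundant genes at the top of the ranking were Spp1, which encodes osteopontin (399 against 2.61 CPM), the small heat shock protein gene Hspb1 (896 against 10.4 CPM) and Upp1, a uridine phosphorylase gene (810.3 against 11.8 CPM).

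All 21 germ cell genes lay above the other day 6 cells, and the 10 that passed the filter were called higher with a median log2 ratio of 5.02. Dazl, a germ cell RNA-binding protein, stood at 24.98 against 0.318 CPM. Sycp3, a component of the synaptonemal complex, stood at 148 against 7.73 CPM. Tex19.1, which restrains retrotransposons, stood at 56.8 against 1.03 CPM, and Mael of the piRNA pathway at 34.6 against 0.864 CPM. The homeobox gene Rhox5 was less restricted at 207 against 25.4 CPM. Genes of primordial germ cells were not alike in level. Prdm1 stood at 3.57 CPM, Prdm14 at 3.71 CPM and Nanos3 at 1.51 CPM, all under the filter on low values. Tfap2c and Dppa3 of the same list stood at 31.6 and 57.5 CPM in the members. After thinning, Tfap2c was found in 13.8% of the members and 0.673% of the other day 6 cells.

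Epithelial adhesion and keratin genes were the other large block above the rest of day 6, with 14 of 16 measured genes called higher and a median log2 ratio of 3.23. Epcam, an epithelial adhesion molecule, stood at 289 against 10.8 CPM. Cdh1 (E-cadherin) stood at 63.3 against 3.19 CPM, while Cdh2 (N-cadherin), the cadherin of neural tissue, was 12.6-fold lower at 7.96 against 100.1 CPM. The tight junction gene Cldn4 stood at 47.1 against 0.826 CPM. Krt18 was 3.28-fold higher (191 against 58.5 CPM), whereas its partner Krt8 stood at 34.7 against 22.3 CPM and was within 2-fold. Tfap2c, a factor of trophectoderm and germ cells, stood at 31.6 against 1.19 CPM. The trophectoderm regulator Cdx2 had only 4 UMIs in all 493 members, and Plac1 and Tpbpa had none.

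Eye field and neural genes were lower throughout. All 13 eye field and forebrain genes lay below the other day 6 cells, and 7 of 9 measured ones were lower by size (median log2 ratio −3.71). Rax, the gene tagged in this line, was 13.3-fold lower (7.82 against 104 CPM), Six6 15.5-fold (7.96 against 123 CPM), Six3 13.5-fold (6.86 against 92.6 CPM), Lhx2 11.8-fold (10.6 against 124 CPM) and Pax6 11.4-fold (23.9 against 272 CPM). Although the labels name the cells retina progenitors, none of these 5 genes exceeded 23.9 CPM in the members. Outside the list the ephrin gene Efna5 showed the lowest ratio among abundant genes, 20.9-fold lower, followed by Ptn, a heparin-binding growth factor, at 17.3-fold lower. Mest, a paternally expressed imprinted gene, was 9.08-fold lower at 200.1 against 1817 CPM.

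The remaining eye gene counts were concentrated in few cells. Summed over Rax, Pax6, Six6 and Lhx2, 360 members (73.0%) had no UMI, and the 28 members with 3 or more (5.68%) held 68.0% of these UMIs. Among the other day 6 cells 77.7% had 3 or more. The 28 cells had a median of 20144.5 UMIs against 14241 in the remaining members. Their levels were 212 CPM of Pax6, 1221 of Mest, 111 of Pou5f1 and 2291 of Dppa5a, against 9.03, 119.5, 253 and 5489 CPM in the other 465 members. Their higher eye gene levels follow from how they were picked, and a limit in raw UMIs favours deep cells, whereas the lower Pou5f1 level was not part of that choice. Without them the calls against the other day 6 cells were 556 higher and 880 lower. Whether they are doublets was not tested.

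Cells with both Dppa5a and Col4a1, a gene of the primitive endoderm, were kept out by the rule. All 19 genes of the primitive endoderm list were below the other day 6 cells and 8 of 8 measured ones were called lower, but the list includes Col4a1 and its median turned from −2.05 to 2.43 without the Col4a1 limit, so the low level follows from the rule. The summed level was 225 CPM in the members, 803 in the other day 6 cells and 106 in the day 4 cells of the gate, with Afp at 0 in the members. The summed neural crest markers stood at 16.6 CPM in the members against 25.6 in the other day 6 cells, and those of mesendoderm at 14.96 against 7.37 CPM, with Mixl1, Evx1 and Cer1 at 0. The part of other cell types in the differences was not tested.

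Signalling lists differed in direction, and their counts stand beside all-gene shares of 8.01% higher and 11.9% lower. Genes low in the other day 6 cells, such as Lefty2, Etv5 and Socs3, passed the filter only through the members. In the Nodal list 5 of 7 measured genes were called higher than in the other day 6 cells, with a median log2 ratio of 3.82. Tdgf1 and Gdf3 of this list are also on the general pluripotency list. Lefty1, a secreted Nodal antagonist that is also a Nodal target, stood at 81.5 against 5.78 CPM, and Lefty2 at 23.7 against 1.35 CPM. In the LIF and STAT3 list 5 of 8 were higher, including Socs3, the feedback inhibitor of the pathway, at 20.5 against 4.87 CPM. In the FGF list 4 of 7 were higher, with the ETS factor Etv5 at 91.5 against 4.05 CPM. The BMP list leaned the other way, with 3 of 6 lower, among them the target genes Id2 (8.20-fold lower) and Id3 (7.83-fold lower), although the ligand gene Bmp4 was 2.73-fold higher at 16.5 against 6.02 CPM. In the Wnt list 4 of 10 were lower and none was higher.

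Metabolic genes showed a selective pattern within glycolysis. Of 19 glucose uptake and glycolysis genes, 6 were called higher, 1 lower and 12 fell within 2-fold, with a median log2 ratio of 0.54. The glucose transporter Slc2a3 was 2.83-fold higher (566 against 200.1 CPM), while Slc2a1 was at 545 against 323 CPM, within 2-fold unless ratios were centred on their median. Pfkp, the platelet isoform of phosphofructokinase, was 11.9-fold higher and Ldhb, the lactate dehydrogenase subunit of the heart type, 5.27-fold higher (1002 against 190.3 CPM). Ldha, the subunit of the muscle type, did not share this with 1574 against 1739 CPM. Hypoxia response genes included 7 higher of 14 measured and none lower, such as Ndrg1 (14.8-fold) and Pdk1 (8.66-fold). The all-gene share of higher calls, which also stands beside the glycolysis count, was 8.01%. Summed over the 16 listed hypoxia genes the levels were alike, at 4383 against 4067 CPM. In contrast to these calls, 19 of 20 tricarboxylic acid cycle genes, 20 of 21 respiratory chain genes and 13 of 13 genes of the mitochondrial genome were within 2-fold.

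Among redox genes, metallothioneins and Gpx4 stood out. Metallothionein Mt1 was 6.57-fold higher (1653 against 251 CPM) and Mt2 14.4-fold higher (1299 against 90.0 CPM) than in the other day 6 cells. Gpx4, a glutathione peroxidase that reduces lipid peroxides, was 10.5-fold higher at 5972 against 568 CPM. Of 13 measured p53 target genes 6 were higher, including Cdkn1a, a cell cycle inhibitor, at 106 against 37.6 CPM. In the S phase list 9 of 37 genes were called lower and none higher, with a median log2 ratio of −0.69 beside the all-gene share of 11.9% and median of −0.29. Of the 40 listed genes, 36 were below the other day 6 cells in level. After centring Clspn (log2 ratio −0.96), Rad51ap1 (−0.84) and Gins2 (−0.82), which follow Rrm1 as the largest of these ratios, were within 2-fold, as was Tyms (−0.81). These calls thus depended on the scaling, while Rrm1 kept its call. Of the G2 and M phase genes, 47 of 51 were within 2-fold. Mki67, a proliferation marker, stood at 55.7 against 75.1 CPM and Top2a at 257 against 244 CPM.

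**Figure D3:**
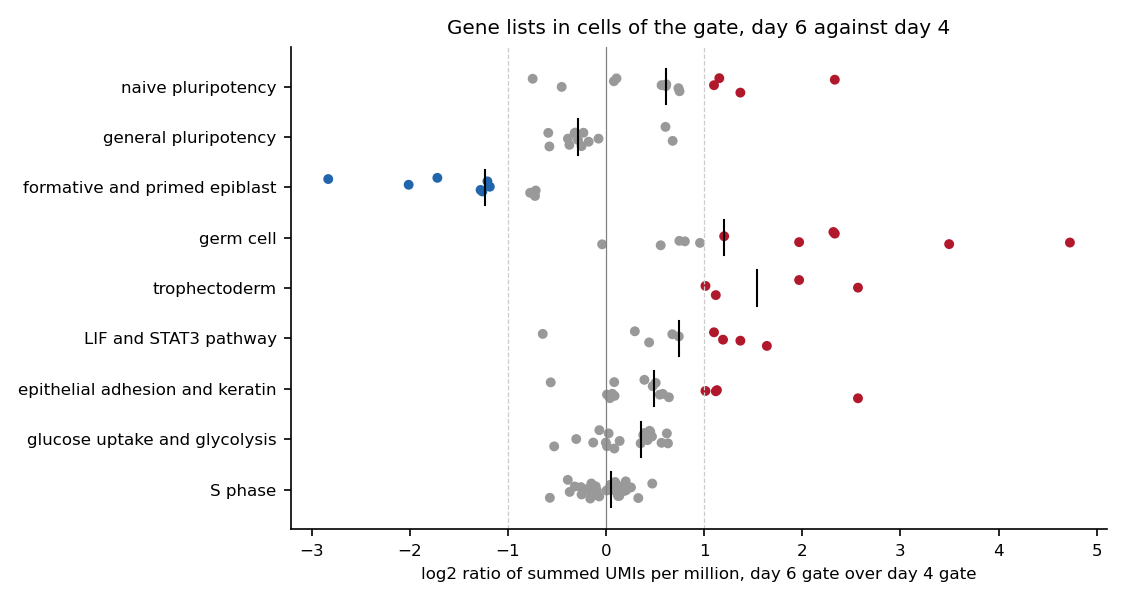
Log2 CPM ratios (x axis) of the measured genes of selected lists (y axis) for the members against the day 4 cells of the same gate. Red points were called higher and blue points lower by size, grey points were within the limits, and the black bar is the list's median. The naive list has a median of 0.61, and the formative list lies left of 0 (median −1.23).

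Against the day 4 cells of the same gate the members differed far less. Of 6488 genes, 109 were called higher (1.68%) and 44 lower (0.678%), with an all-gene median log2 ratio of 0.04. The same change of day could be read in the cells outside the gate, where 327 of 6699 genes were higher on day 6 (4.88%) and 190 lower (2.84%). Of 48 genes called higher between the gated cells and measured in the others, 27 were also called higher there, and 41 had a ratio above 1. Of 38 called lower, 25 were also called lower and all 38 had a ratio under 1. A part of the difference was therefore shared with the rest of the library. Dppa5a itself, limited in the same way on both days, stood at 5255 and 3127 CPM, a ratio of 1.68 (1.66–1.70).

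Stra8 showed the highest ratio between the days among abundant genes. It stood at 153 CPM in the members and 5.77 in the day 4 cells of the gate, a ratio of 26.5 (21.8–32.4), and was found in 33.5 and 2.66% of thinned cells. Of the 21 germ cell genes, 20 were above their day 4 level, with 6 of 11 measured genes called higher and a median log2 ratio of 1.20. Beside this, 1.68% of all genes were called higher, with a median log2 ratio of 0.04. Genes low on day 4, such as Rhox6 and Dazl, passed the filter on low values only through the members. The homeobox gene Rhox6 was 11.3-fold higher (7.67–17.0, at 18.7 against 1.65 CPM), Dazl 4.98-fold (3.88–6.42) and Tex19.1 2.3-fold. Sycp3 was equal by size, with 148 against 152 CPM and a ratio of 0.973. The germ cell genes therefore did not move as a block.

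Most of the measured naive genes were within 2-fold of their day 4 level, though the list leaned higher. Of 17 genes, 15 were higher in level and 4 of 13 measured ones were called higher, with a median log2 ratio of 0.61. The all-gene share of higher calls was 1.68% and the all-gene median 0.04. The list includes Dppa5a, which chose the cells, and Klf4 and Tfcp2l1 passed the filter on low values only through the members. Dppa3 stood at 57.5 against 11.4 CPM (5.03-fold, 4.27–5.94), Nanog at 72.2 against 32.4 CPM (2.23-fold, 1.98–2.50), Klf4 at 20.6 against 7.97 CPM (2.58-fold, 2.05–3.25) and Tfcp2l1, a factor downstream of LIF, at 15.4 against 7.17 CPM. Among cells of like Dppa5a level the log2 ratios of Dppa3, Nanog and Tfcp2l1 were 0.80, 0.80 and 0.68, within 2-fold. Nanog was also within 2-fold at 60 or more Dppa5a UMIs (0.83) and without the Col4a1 limit (0.996). Klf2 (100.1 against 94.7 CPM) and Esrrb (21.0 against 19.5 CPM) were within 2-fold. In the general pluripotency list 12 of 14 genes were below their day 4 level but none passed 2-fold. Pou5f1 stood at 243 against 318 CPM, and in the other day 4 cells, with 331 CPM, it was as high as in the gate.

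Formative genes were lower. All 12 genes of the list were below their day 4 level, and 7 of 10 measured ones were lower by size (median log2 ratio −1.23). The all-gene share of lower calls was 0.678%. The list was lower on day 6 outside the gate too. There 6 of 10 measured genes were lower by size and 1 was higher (median log2 ratio −1.90). The lower level is therefore not particular to the members. Dnmt3b, a de novo DNA methyltransferase, was 4.03-fold lower at 74.5 against 300 CPM. Fgf5 was at 53.1 against 121 CPM and Pou3f1, a POU factor of the epiblast and neural plate, at 17.98 against 59.2 CPM. Otx2 stood at 92.5 against 158 CPM and stayed within 2-fold. Dnmt3a was 2.39-fold lower, whereas Dnmt3l, the methyltransferase cofactor without catalytic activity, was 2.09-fold higher (104 against 50.1 CPM). Pim2, a serine/threonine kinase gene, had the lowest ratio of the comparison among abundant genes at 22.0 against 156 CPM, 7.11-fold lower. Outside the gate Pim2 changed from 382 CPM on day 4 to 6.76 CPM on day 6.

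Some genes of epithelium and trophectoderm were higher than on day 4. In the epithelial list 4 of 16 measured genes were called higher and 12 were within 2-fold (median log2 ratio 0.49), and of 14 trophectoderm genes 4 passed the filter and were called higher, beside the all-gene share of 1.68%. These trophectoderm genes were Krt19, Krt18, Krt8 and Tfap2c. All but Tfap2c are also counted in the epithelial list, so the 2 counts are not separate. The other trophectoderm genes were under the filter on low values. Krt19 was 5.93-fold higher (5.22–6.74, at 105 against 17.6 CPM) and found in 25.4 against 6.68% of thinned cells. Krt18 and Krt8 were 2.02- and 2.17-fold higher, Tfap2c 3.91-fold, and the calcium-binding protein gene S100a6 2.85-fold (90.0 against 31.6 CPM). Lefty1 was 4.88-fold higher (4.26–5.60) and Socs3 3.11-fold. Among imprinted genes H19, a maternally expressed noncoding RNA, was 3.21-fold higher (205 against 63.8 CPM). Mest was 2.35-fold higher, but this call was lost without the 28 members that carried eye gene UMIs (log2 ratio 0.53). Pax6, at 2.21 CPM on day 4, was 10.8-fold higher, and most of its UMIs came from the same few cells.

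Metallothioneins were lower than on day 4. Mt1 stood at 1653 against 4778 CPM (2.89-fold lower) and Mt2 at 1299 against 3781 CPM, while in the cells outside the gate Mt1 changed from 1885 to 251 CPM. Glycolysis (19 genes), hypoxia response (14), S phase (37) and G2 and M phase (51) had no gene called in either direction, with median log2 ratios of 0.35, 0.04, 0.05 and 0.10.

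The members' higher Dppa5a level could bear on the comparison of days, so cells of 1 narrow range, 40 to 80 Dppa5a UMIs per 10000 UMIs of the cell, were compared next (189 members and 419 day 4 cells; the range was chosen after the values were seen). Stra8 remained high at 160 against 10.3 CPM and Krt19 at 88.7 against 15 CPM. Lefty1 stood at 58.1 against 12.3 CPM, Dazl at 25.6 against 7.89 CPM and Klf4 at 26.0 against 12.3 CPM. Pim2 was again lower at 8.65 against 49.4 CPM. These genes kept a gap of more than 2-fold. In contrast, Nanog (93.8 against 53.8 CPM), Dppa3 (48.3 against 27.7 CPM), Fgf5 (31.4 against 54.0 CPM) and Dnmt3b (73.6 against 142 CPM) were within 2-fold in this range. So were Tfcp2l1, Dnmt3l, Tex19.1, Cldn4, Krt18 and Mest. Klf4 was within 2-fold among cells with 60 or more Dppa5a UMIs (log2 ratio 0.79), and Krt8 among those with 20 or more (0.99). The Fgf5 call was also lost among cells with 8000 to 16000 UMIs, where its log2 ratio was −0.43.

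The difference between gated and other cells was also read within each day, where no cell is shared. On day 4, 249 of 6446 genes were higher in the gate (3.86%) and 209 lower (3.24%), and the all-gene median was −0.20 on the log2 scale. Among 6211 genes measured on both days, 210 were called higher on both, 45.2% of the 465 called on day 6 and 90.1% of the 233 called on day 4. For lower genes the number was 170, which was 27.4% of the day 6 calls and 90.4% of the day 4 calls. Pou5f1 was 42.6-fold higher on day 6 (38.4–47.3) and within 2-fold on day 4 (318 against 331 CPM), since the other day 4 cells still carried it. Pim2 and 2200002D01Rik were called in opposite directions on the 2 days.

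**Figure D4:**
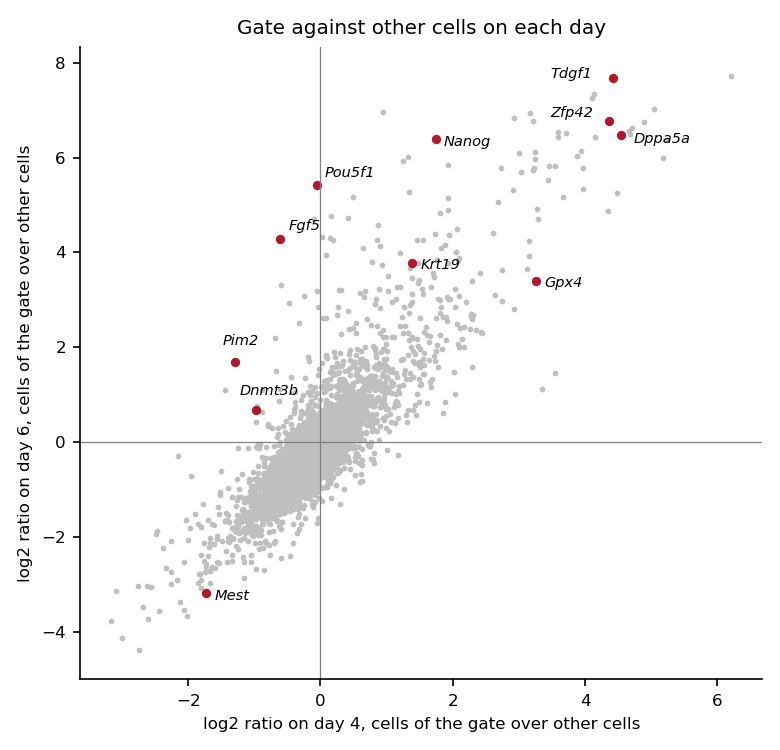
Log2 CPM ratio of gated over other cells on day 4 (x axis) and day 6 (y axis) for the 6211 genes measured on both days, each axis from 1 library. Zfp42, Dppa5a and Nanog are high on both axes, Pou5f1 only on day 6, and Pim2 lies below 0 on day 4 but above 0 on day 6.

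The members were not uniform. Per cell, Nanog ranged from 0 to 13 UMIs with a median of 0 and was present in 220 members (44.6%). Stra8 ranged from 0 to 32 with a median of 1 and was present in 256 (51.9%), Krt19 from 0 to 41 in 198 (40.2%), Dppa3 from 0 to 43 in only 85 (17.2%), and Klf4 from 0 to 8 in 86 (17.4%). Pou5f1 was more widely found, with a median of 3 UMIs and 417 positive members (84.6%), as was Utf1, with a median of 5 UMIs and 453 positive members (91.9%). Fgf5 was absent from most but reached 49 UMIs in a cell, and was present in 108 (21.9%). After thinning to 5000 UMIs, the variance was 5.95 times the mean for Dppa3, 7.85 for Lefty1, 4.80 for Fgf5, 3.68 for Krt19 and 2.42 for Stra8. For Nanog and Klf4, with 1.72 and 1.54, it was nearer to the value of 1 of pure counting.

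Fgf5 and Pim2 of the formative list varied against some naive genes among the members, while Dnmt3b did so less. Nanog was most correlated over the 493 members with Zfp42 (Spearman rho 0.365) and with Eif2s2 (0.316), and Fgf5 ran against Zfp42 (−0.270) but hardly with or against Dppa3 (−0.035). Dnmt3b, the methyltransferase gene, was near 0 with both Nanog (−0.028) and Klf4 (−0.046), and ran weakly against Zfp42 (−0.129). These correlations are descriptions of sparse counts from 1 library, thinned to equal depth. Without thinning, Pim2 stood at 48.3 CPM in the 139 members without Zfp42. It stood at 7.01 CPM in the 212 members with 3 or more Zfp42 UMIs. In the 43 members with 3 or more Fgf5 UMIs, Zfp42 stood at 41.7 CPM, Stra8 at 33.0 and Nanog at 24.4, against 310.5, 179.6 and 82.5 CPM in the 385 members without Fgf5. Lefty1 stood at 384 against 28.6 CPM and Pim2 at 73.3 against 13.1 CPM in the same cells. Pou5f1 (203 against 254 CPM) and Tdgf1 (353 against 304 CPM) hardly differed. The members with 3 or more Fgf5 UMIs thus kept Pou5f1 and Tdgf1, had less Zfp42 and Nanog and more Lefty1. Sox2 was not read in this division. Of the 108 members with any Fgf5 UMI, 45.4% also had Lefty1, against 11.7% of those without. The number of UMIs that divided these groups was chosen after the values were seen.

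Krt19 varied together with other keratin genes. It was most correlated with Bex1 (0.328), S100a6 (0.264) and Krt18 (0.244). The 78 members with 3 or more Krt19 UMIs had 415 CPM of Krt18, 106 of Krt8 and 222 of S100a6, against 119, 14.9 and 52.1 CPM in the 295 without Krt19. The Krt19-rich members had somewhat lower levels of Nanog (62.9 against 74.5 CPM) and Zfp42 (199 against 268 CPM), and 29.9 against 74.7 CPM of Dppa3. Divided by Nanog instead, the 65 members with 3 or more Nanog UMIs had 57.2 CPM of Krt19 and 109 of Krt18, against 111.6 and 235 CPM in the 273 without Nanog. Keratin levels were thus lower in these 65 members, but not with Nanog in general. Over all members at equal depth Krt19 and Nanog were hardly correlated (0.054). Krt19 was found in 42.3% of the members with any Nanog UMI and 38.5% of those without. Stra8 and Dppa3 had no partner above 0.169. The 46 members with 3 or more Dppa3 UMIs had 209 CPM of Stra8 against 143 in those without Dppa3, and 97.3 against 67.8 CPM of Nanog.

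When the members were divided by Dppa5a per 10000 UMIs into 3 groups of 165, 164 and 164 cells, the naive genes followed it. From the lowest to the highest group Nanog stood at 26.2, 69.1 and 124 CPM, Zfp42 at 113, 299.6 and 388 CPM, and Klf4 at 7.92, 18.5 and 36.0 CPM. Otx2 was flat at 95.5, 89.3 and 92.5 CPM. Fgf5 ran in the other direction at 97.5, 43.0 and 16.3 CPM, as did Pim2 at 43.6, 14.3 and 6.70 CPM and Krt19 at 132, 100.3 and 79.9 CPM. Stra8 was nearly flat at 131, 160.1 and 168 CPM, and Sycp3 likewise at 152, 156 and 136 CPM. In the day 4 cells of the gate the same division gave 16.0, 28.5 and 56.5 CPM of Nanog and 177, 118 and 54.9 CPM of Fgf5. There Stra8 did not exceed 11.6 CPM and Krt19 did not exceed 19.8 CPM in any group, so that every group of members lay above every group of day 4 for these 2 genes. Lefty1 stood at 127, 97.8 and 17.6 CPM in the members and at 20.8, 14.8 and 13.7 CPM on day 4. Its gap between the days was thus small in the highest group. The median depth of the 3 groups of members was alike, 14730, 14473 and 14279 UMIs.

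**Figure D5:**
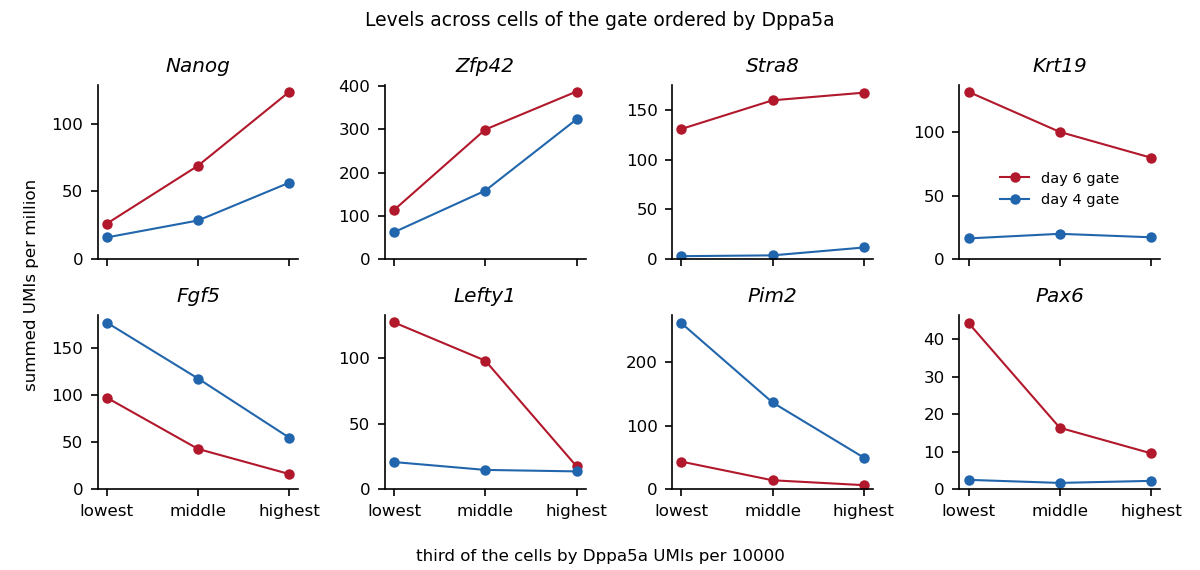
Levels in CPM (y axis, linear, from 0) of 8 genes in 3 equal groups of the gated cells (lowest, middle and highest) ordered by Dppa5a UMIs per 10000 UMIs (x axis), for the members in red and the day 4 cells of the gate in blue, drawn without error bars. Nanog and Zfp42 increase with Dppa5a on both days and Fgf5 and Pim2 decrease, whereas Stra8 and Krt19 are higher on day 6 in every group.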

How the data were processed

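Deposited raw UMI counts per gene and barcode, made by the authors with Cell Ranger 2.0.1 (Seurat 2.3.4 and build mm10 are also named in the submitters' processing notes), were read for 1 day 4 and 1 day 6 library of 27998 genes each; the study's methods name later versions of these tools. Barcodes over 26000 UMIs or 5000 genes, or outside 0.5 to 10% mt- UMIs, were left out (2308 in all). UMIs were summed in each of 4 groups of cells and expressed as CPM of that group's UMIs, and ratios carry exact conditional binomial 95% intervals. With 1 library per group no test was made. Intervals and limits from a count of 0 (3 counts) cover counting error only. Shares of cells were read after thinning to 5000 UMIs, which left out 0 members, 0 other day 6 cells, 18 day 4 cells of the gate and 139 other day 4 cells. Scrublet marked 0 day 6 and 6 day 4 cells, too few to have worked, so doublets were left in. Mapping to the mouse reference cannot separate near-identical gene copies.

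The members and the 36 gene lists (550 of 554 genes found) were chosen with earlier results of these data known. Genes were named by rule: the 6 given markers and Col4a1, the 15 highest and 15 lowest ratios of each comparison at a mean CPM of 50 or more (mt-, Rpl, Rps, haemoglobin and unnamed models left out), up to 4 measured genes of each list with the largest log2 ratio, the 10 most variable genes, the 3 best correlated partners of each marker and the study's panel of eye and glycolysis genes. The other genes named were chosen after their values were seen. Promoters are the 250 bases before each start in a RefSeq table of GRCm38.p6, and that of Dppa5a was not used here. The script was tested on simulated counts. Alternatives covered the gate, cell filter, depth, totals, centring, low-value filter and fold. Python 3.11.15, numpy 2.4.6, scipy 1.17.1, pandas 2.3.3 and scanpy 1.11.5 were used. Results on 1 gene are not reported here.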

Additional observations from a re-analysis of the deposited data

Results flagged for a closer look

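Pim2, a kinase gene, and the unnamed gene 2200002D01Rik were called in opposite directions on the 2 days. Against the other cells of the same day Pim2 was higher in the members by a log2 ratio of 1.70 (22.0 against 6.76 CPM) and lower in the day 4 cells of the gate (156 against 382 CPM). For 2200002D01Rik the day 6 log2 ratio was 1.11 (24.6 against 11.4 CPM), while on day 4 it stood at 6.87 CPM in the gate and 18.7 CPM outside. With 1 library per day the difference between the days was not tested.

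Cells outside the members also carried 10 or more Dppa5a UMIs. The limit of 26000 UMIs removed 132 such day 6 barcodes, with 145 CPM of Stra8, 192 of Pou5f1 and 38.8 of Nanog, of which 28.8% had 3 or more UMIs of the 4 eye genes. The limit on mt- UMIs removed 11, with 66.8 CPM of both Stra8 and Gata6. The Col4a1 limit removed 71 kept cells that differed from the members in most of the markers. They held 180.4 CPM of Klf4 but 1.01 of Nanog and 3.04 of Stra8, together with 679 CPM of the endocytic adaptor gene Dab2, 199.6 of Gata6 and 196 of Sox17, both factors of primitive endoderm.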

How the results depend on the processing

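No paired analysis was possible because each day is 1 library and the replicate numbers pair no cells. The number of members ran from 425 to 564 under the gate, filter and doublet alternatives and was 254 at 60 or more Dppa5a UMIs, a limit chosen after seeing the data. Against the other day 6 cells, the 545 genes higher and 813 lower became 915 higher with totals without mt-, Rpl and Rps genes, 468 lower after centring, 123 and 213 at a mean CPM of 50 or more, 2688 and 2037 with 1 or more UMIs in both groups as the only filter, and 829 and 2062 at 1.5-fold. Against day 4, the 109 higher and 44 lower became 192 higher without the Col4a1 limit, 185 and 68 with the reduced totals, 14 and 11 at a mean CPM of 50 or more, 912 and 231 with 1 or more UMIs, and 433 and 209 at 1.5-fold. The reduced filter and fold change these counts by construction. Without the Col4a1 limit the primitive endoderm list changed sign against the other day 6 cells, with a median log2 ratio of 2.43, and so did Col4a1 (2.18), Col4a2 (2.13), Lama1 (2.40), Lamb1 (1.90), Srgn (2.96), Dab2 (2.46), Sparc (2.11) and Lrp2 (0.33), because the excluded 71 cells carry these genes. Of the ratios of single genes under all alternatives, 6634 kept their direction and side of 2-fold, 106 lost their call, 100 gained one and 8 changed sign. The genes described above whose call between the days was lost among cells of like Dppa5a level are named beside that comparison, and the cause was not tested. Depth limits genes under 10 CPM, such as Prdm1 and Nanos3.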

Other observations

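Genes of the two-cell-like state, a rare and transient state of embryonic stem cells that uses Zscan4 genes, were confined to very few of the members. Of 493 members, 477 (96.8%) had no UMI of the 11 listed genes, and 5 cells with 5 or more held 110 of the 128 UMIs (85.9%). The cell with most, 57 list UMIs, had 26 of Zscan4f, 11 of Zscan4c, 10 of Sp110 and 12 of the noncoding gene Platr31, and kept 4 UMIs of Pou5f1 at a depth of 24903 UMIs. The next cell, with 28 list UMIs, had 14 of Sp110, 30 of Platr31 and none of Pou5f1 at 5489 UMIs. Another cell had 27 UMIs of Platr31, 13 of the list and 6 of Pou5f1. These 5 cells were chosen by their values. None of the list's genes passed the filter on low values, and the summed level was 17.6 CPM in the members, 0.534 in the other day 6 cells and 7.37 in the day 4 cells of the gate.

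After Malat1, whose variance was 34.9 times its mean, Platr31 was the most variable gene among the members (16.7 times, in 14 cells with up to 28 thinned UMIs). S100a13 (11.8 times) was likewise carried by few cells, 35 of 493, and Sp110 (9.76 times) by 5. Gpx4 (13.8 times) and the metallothionein genes Mt1 (12.2 times) and Mt2 (10.9 times) varied as abundant genes. Imprinted genes did not share 1 direction: of 14 measured against the other day 6 cells 3 were higher, 5 lower and 6 within 2-fold, with H19 5.91-fold higher (205 against 34.6 CPM) and Ndn, a paternally expressed gene, 6.64-fold lower.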
